A study of Homo sapiens with 6 samples.

Results

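The 8 genes described here encode enzymes of transsulfuration and of glutathione metabolism: CTH, CBS, GCLC, GCLM, GSS, GSR, GPX4 and GGCT. They were taken by name from the 26931 gene symbols of the deposited tables, and all 8 were found, each on 1 row. The names were chosen with their FPKM values in these samples known, so the members' values are a description. No p is given for a member, and where members past the threshold of the test across all genes are counted, the count supports nothing. FPKM is a fragment count scaled by transcript length and by library size, a level per length, so levels of different genes can be set side by side. The study used TC32, an established Ewing sarcoma cell line, a tumour type in which most cases carry a fusion of EWSR1 with FLI1. Cells were transfected with an siRNA against EWSR1 (siEWSR1), an siRNA against FLI1 (siFLI1) or a control siRNA (siNeg), and total RNA was taken 48 h later from 2 samples per group, 6 libraries in all. No allele or agent other than the siRNA is named for any group, the sources used here do not give the target site of either siRNA, and the samples come from this single line.

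Transsulfuration moves the sulfur of homocysteine, a product of the methionine cycle, to serine. CBS joins homocysteine and serine into cystathionine, and CTH splits cystathionine to release cysteine. Glutamate-cysteine ligase, made of the catalytic subunit GCLC and the modifier subunit GCLM, joins cysteine to glutamate, and GSS adds glycine to complete glutathione. GSR returns oxidised glutathione to its reduced form with NADPH, GPX4 is a selenoprotein that uses glutathione to reduce lipid hydroperoxides, and GGCT cleaves gamma-glutamyl dipeptides made from glutathione. Cells also take up cysteine as cystine through the transporter SLC7A11.

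The files give no counts, so the depth of the 6 libraries is unknown. Genes that reached 1 FPKM numbered 12669 and 12611 with siEWSR1 and 12741 and 12700 with siFLI1, against 12079 and 12133 with siNeg. More genes thus reached it in every knockdown library than in either siNeg library. EWSR1 stood at 34.6 and 32.3 FPKM with siEWSR1 and 51.2 and 50.2 with siFLI1, against 46.5 and 47.2 with siNeg. FLI1 stood at 10.4 and 10.6 FPKM with siEWSR1 and 8.98 and 8.56 with siFLI1, against 10.9 in both siNeg libraries. Each targeted gene was thus lowest in the libraries of its own siRNA. The log2 changes against siNeg were -0.48 ± 0.06 (SE) for EWSR1 with siEWSR1 and -0.29 ± 0.06 for FLI1 with siFLI1. These values are per gene and do not separate normal transcripts from any fusion transcripts, which were not examined. All 6 Ewing sarcoma markers checked (CD99, NKX2-2, NR0B1, STEAP1, CCND1, PRKCB) were at 1 FPKM or more in every library. Their summed level was 474 to 584 FPKM with siEWSR1 and 512 to 558 with siFLI1, against 960 to 985 with siNeg. Of 5 epithelial markers only KRT18 was at 1 FPKM or more in every library (24.7 to 26.6, 28.2 to 28.6 and 21.7 to 21.8 FPKM summed over the list, in the same order of groups). The 5 blood markers summed to 0.499 to 0.594, 0.328 to 0.409 and 0.235 to 0.350 FPKM and the 4 endothelial markers to 0.872 to 0.941, 0.794 to 0.823 and 0.311 to 0.381, again in that order, with PTPRC, CD3E, HBB and VWF at or near 0. The part of any of these lists in the results below was not tested. FPKM is a share of each library, so fewer cells of a kind and less RNA per cell cannot be told apart.

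The promoter windows of CTH and CBS, the members lowered most against siNeg, and of GPX4, the one raised most, are shown with that of GCLM, whose level stayed close to that of siNeg. Each is the stretch of 250 bases before the most upstream RefSeq start, on build GRCh38.p14 and read 5′ to 3′ on the gene's strand, whereas the expression files use hg19. Capitals mark matches, on either strand, to the motifs listed after the sequences.
CTH, chr1:70411018-70411267, plus strand: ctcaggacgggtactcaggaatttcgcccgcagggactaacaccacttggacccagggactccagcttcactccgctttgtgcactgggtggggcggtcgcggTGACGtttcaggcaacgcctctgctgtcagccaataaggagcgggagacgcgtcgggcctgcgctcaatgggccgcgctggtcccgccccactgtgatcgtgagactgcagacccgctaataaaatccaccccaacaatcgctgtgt
CBS, chr21:43076378-43076627, minus strand: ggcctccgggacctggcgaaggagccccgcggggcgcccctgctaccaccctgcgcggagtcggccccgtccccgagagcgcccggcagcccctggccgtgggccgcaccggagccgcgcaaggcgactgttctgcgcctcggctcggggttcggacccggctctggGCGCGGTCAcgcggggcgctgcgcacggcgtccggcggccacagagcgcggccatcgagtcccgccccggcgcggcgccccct
GPX4, chr19:1103744-1103993, plus strand: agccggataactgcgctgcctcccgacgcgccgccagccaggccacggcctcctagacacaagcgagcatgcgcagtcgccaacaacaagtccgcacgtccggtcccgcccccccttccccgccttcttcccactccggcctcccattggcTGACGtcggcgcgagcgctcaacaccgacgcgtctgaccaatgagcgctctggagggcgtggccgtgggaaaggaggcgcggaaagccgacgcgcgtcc
GCLM, chr1:93909431-93909680, minus strand: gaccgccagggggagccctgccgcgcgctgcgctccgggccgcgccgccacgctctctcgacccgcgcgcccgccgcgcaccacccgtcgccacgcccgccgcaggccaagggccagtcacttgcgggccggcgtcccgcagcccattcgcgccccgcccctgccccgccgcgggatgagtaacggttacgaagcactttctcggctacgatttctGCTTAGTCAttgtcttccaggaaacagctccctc

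Motifs were searched on both strands in 35116 windows of this kind. TGATGNAA, the composite site of C/EBP and ATF proteins, was in 3.14% of all windows and in no window of a member. The core of the antioxidant response element, TGACNNNGC, was in 10.9% of windows and in those shown for CBS (first base 83 bases before the start) and GCLM (34 bases before it). GGAAGGAA, a pair of joined GGAA units, and CCGGAAGT, an ETS site, were in 3.06% and 3.42% of windows and in none of a member's. TGACG, a half-site of the cyclic AMP response element added after the sequences were read, was in 21.2% of windows and in those of CTH (147 bases before the start) and GPX4 (99 bases before it). No matches overlapped in the windows shown. Of the 8 members 5 had a window in the table. GGCT, which changed more than GPX4 with either siRNA, was not among them. CBS and GPX4 had 3 each. The other CBS windows held no match to any of these motifs. The other GPX4 windows also held TGACG, but windows of the same gene may overlap, so these need not be separate sites. GCLC had no match to any of these motifs, which says only that these letters are not in its window.

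CTH had by far the widest change of the 8 genes. CTH (hg19, chromosome 1, 70876901 to 70905534) stood at 3.60 and 3.53 FPKM with siEWSR1 and 3.37 and 3.69 with siFLI1, against 51.3 and 44.6 with siNeg. All 4 knockdown libraries lay far below both siNeg libraries, and the knockdown groups overlapped each other. The deposited 95% bounds reached at most 4.06 FPKM with siEWSR1 and 4.18 with siFLI1 and went no lower than 42.2 with siNeg. In the knockdown libraries the bounds went no lower than 2.90 FPKM, so the low values of CTH stood apart from 0. On the log2(FPKM + 0.5) scale the change was -3.57 ± 0.08 (SE) with siEWSR1 and -3.59 ± 0.08 with siFLI1. The ratio of plain mean FPKM was wider, 13.5-fold and 13.6-fold lower, since the added 0.5 narrows the change of low values. CTH was the 9th lowest of 13043 tested genes with siEWSR1 and the 11th lowest with siFLI1.

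CBS, which acts just before CTH, was lower too but by much less. CBS (hg19, chromosome 21, 44473301 to 44496971) stood at 38.4 and 31.8 FPKM with siEWSR1 and 34.5 and 33.3 with siFLI1, against 88.8 and 86.9 with siNeg. Every knockdown library was below both siNeg libraries, and the log2 changes were -1.32 ± 0.09 (SE) with siEWSR1 and -1.36 ± 0.09 with siFLI1. The unequal change of the pair shows in their ratio within a library. CTH over CBS in FPKM was 0.094 and 0.111 with siEWSR1 and 0.098 and 0.111 with siFLI1, against 0.578 and 0.513 with siNeg. The ratio was thus lower in all 4 knockdown libraries, with no overlap with siNeg. No p is given for it: 2 samples against 2 allow no exact p below 0.333.

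**Figure D1:**
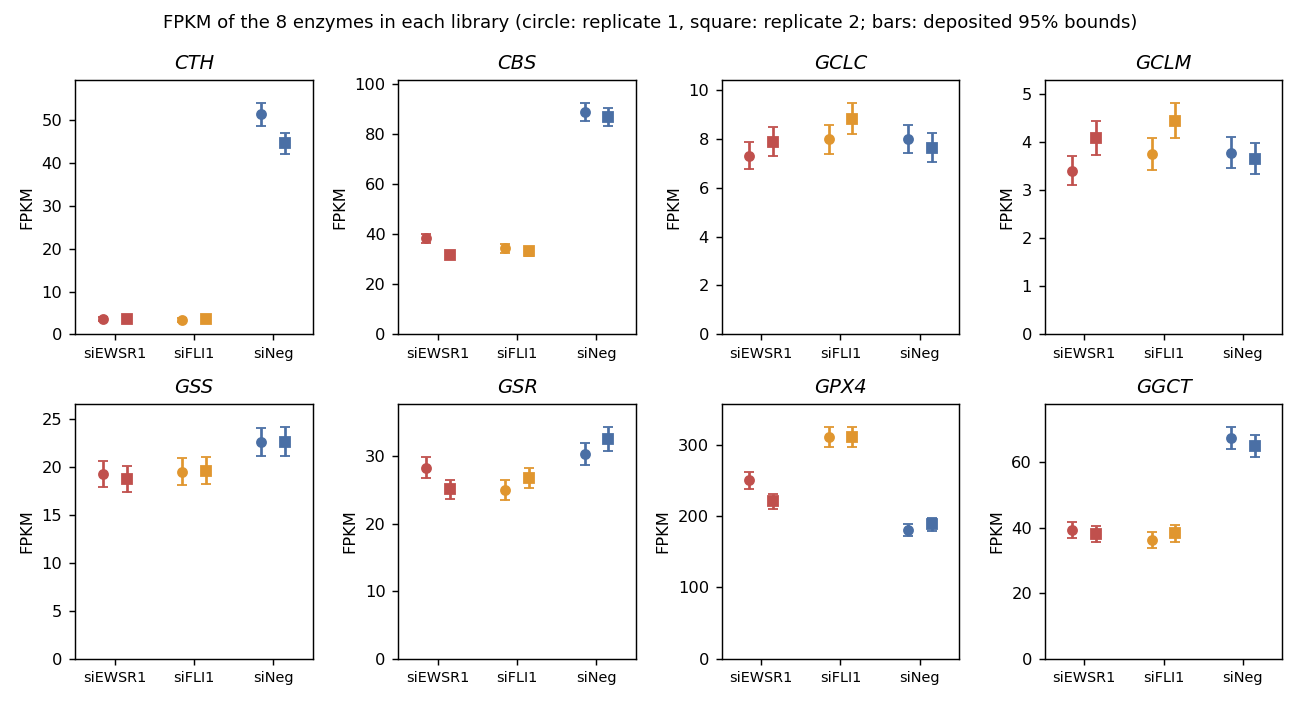
FPKM of each of the 8 enzymes (vertical axes, linear from 0) in the 2 libraries of siEWSR1, siFLI1 and siNeg (horizontal axis), with the deposited 95% bounds as bars. CTH stands at 3.37 to 3.69 FPKM in the 4 knockdown libraries against 44.6 and 51.3 with siNeg, while GCLC and GCLM lie close together across groups and GPX4 is highest with siFLI1.

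Both subunits of glutamate-cysteine ligase stayed near their siNeg level. GCLC (hg19, chromosome 6, 53362140 to 53409927) stood at 7.29 and 7.87 FPKM with siEWSR1 and 7.97 and 8.82 with siFLI1, against 7.97 and 7.63 with siNeg. GCLM (chromosome 1, 94350756 to 94375154) stood at 3.41 and 4.08 FPKM with siEWSR1 and 3.75 and 4.45 with siFLI1, against 3.78 and 3.66 with siNeg. For both genes the siEWSR1 libraries lay on either side of a siNeg library, and their highest value was in siFLI1 replicate 2. The log2 changes of GCLC were -0.04 ± 0.08 (SE) and 0.10 ± 0.08, and those of GCLM 0.00 ± 0.11 and 0.12 ± 0.11, with siEWSR1 and siFLI1 in that order. These errors leave room for small changes in either direction. The subunits kept a near constant proportion, with GCLC over GCLM at 2.14 and 1.93 with siEWSR1 and 2.13 and 1.98 with siFLI1, against 2.11 and 2.09 with siNeg.

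GSS and GSR were slightly lower with either siRNA. GSS (hg19, chromosome 20, 33516236 to 33543830), which completes glutathione, stood at 19.2 and 18.7 FPKM with siEWSR1 and 19.5 and 19.6 with siFLI1, against 22.6 in both siNeg libraries. Its log2 changes were -0.25 ± 0.05 (SE) and -0.20 ± 0.05. The gene MYH7B overlaps GSS, but at 0.117 to 0.261 FPKM in all libraries. GSR (chromosome 8, 30535580 to 30585486), the reductase, stood at 28.3 and 25.1 FPKM with siEWSR1 and 25.002 and 26.8 with siFLI1, against 30.3 and 32.5 with siNeg, with log2 changes of -0.23 ± 0.08 and -0.27 ± 0.08. For both genes the knockdown values lay below the siNeg values, though for GSR the deposited bounds of siEWSR1 (up to 29.8 FPKM) reached into those of siNeg (down to 28.7). GSR over GSS was 1.47 and 1.34 with siEWSR1 and 1.28 and 1.37 with siFLI1, against 1.34 and 1.44 with siNeg, so the groups overlapped in this ratio.

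GPX4 was the single member whose libraries lay above both siNeg libraries with siEWSR1 and with siFLI1, and it stood higher with siFLI1 than with siEWSR1. GPX4 (hg19, chromosome 19, 1103925 to 1106788) was at 249.8 and 221 FPKM with siEWSR1 and 310.1 and 310.2 with siFLI1, against 180 and 188 with siNeg. The 3 groups did not overlap, and neither did their deposited bounds (210 to 261, 296 to 324 and 172 to 198 FPKM, in the same order). Its log2 changes were 0.35 ± 0.07 (SE) with siEWSR1 and 0.75 ± 0.07 with siFLI1. The difference of siEWSR1 minus siFLI1 was -0.40 ± 0.07. GPX4 was the most abundant of the 8 transcripts in every library.

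GGCT was lower with either siRNA, between CBS and GSS in the size of its change. GGCT (hg19, chromosome 7, 30536237 to 30544457) stood at 39.5 and 38.2 FPKM with siEWSR1 and 36.3 and 38.3 with siFLI1, against 67.4 and 65.0 with siNeg. The knockdown libraries were closely grouped and far below siNeg, with log2 changes of -0.76 ± 0.05 (SE) and -0.82 ± 0.05.

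The order of the members by mean FPKM differed between groups mainly through CTH and CBS. With siEWSR1 it was GPX4, GGCT, CBS, GSR, GSS, GCLC, GCLM and CTH, where the libraries of GGCT and CBS, and those of GCLM and CTH, overlapped. With siFLI1 the order was the same, and no neighbours overlapped in FPKM. With siNeg it was GPX4, CBS, GGCT, CTH, GSR, GSS, GCLC and GCLM, again with no overlap between neighbours. CTH was thus last of the 8 with siEWSR1 and siFLI1 and in place 4 with siNeg, at 3.56 ± 0.05, 3.53 ± 0.22 and 48.0 ± 4.76 FPKM (SD, n = 2 each).

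**Figure D2:**
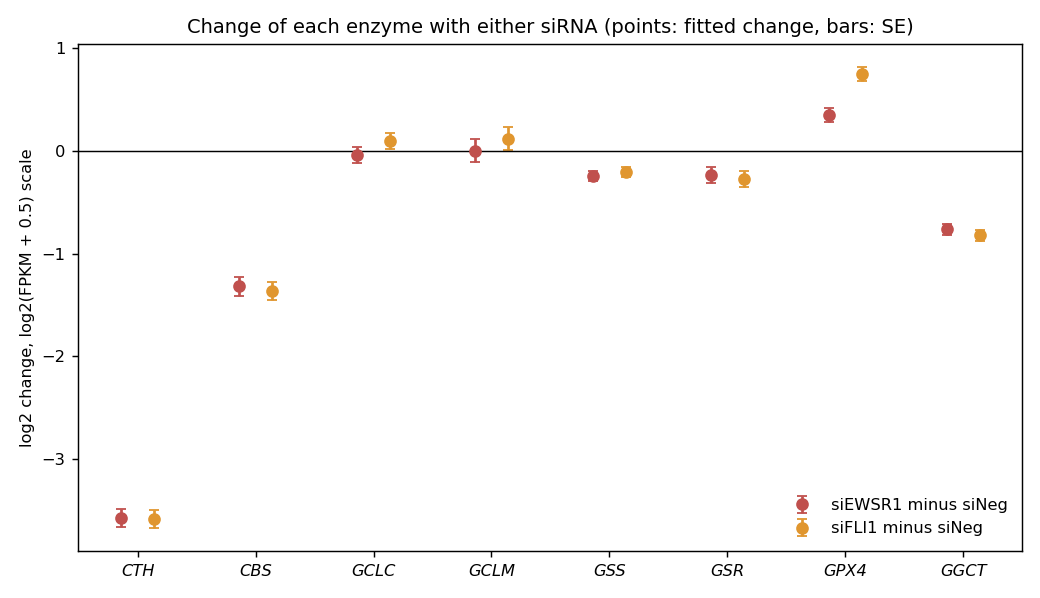
Fitted log2 change of each enzyme with siEWSR1 (red) and siFLI1 (orange) relative to siNeg on the log2(FPKM + 0.5) scale, with SE as bars; the 2 comparisons share the siNeg libraries. CTH lies near -3.6 with either siRNA, CBS near -1.3 to -1.4, GCLC and GCLM close to 0, and GPX4 above 0.

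Counted by the test across all genes (limma on log2(FPKM + 0.5), adjusted p under 0.05), 5 of the 8 members were lower with siEWSR1 and 1 was higher, beside 31.0% of 13043 tested genes lower and 33.2% higher. With siFLI1 the counts were again 5 lower (CTH, CBS, GSS, GSR, GGCT) and 1 higher (GPX4), beside 29.6% of genes lower and 35.7% higher. The members were chosen on these values, so nothing is read from the counts. Of the members lower with siFLI1, 3 stayed past the threshold without siNeg replicate 2 or without siFLI1 replicate 1, and the place of GSR among those lower with siEWSR1 was lost in 11 of 16 alternatives. The median log2 change of the members was -0.24 with siEWSR1 and -0.24 with siFLI1, against 0.01 and 0.04 over all tested genes. In either direction, 64.2% of all genes were called with siEWSR1 and 65.3% with siFLI1. Both comparisons share the siNeg libraries. Between the siRNAs, 1 member (GPX4) was lower with siEWSR1 and 0 were higher, beside 3.07% and 0.790% of all genes, 3.86% in either direction. This place of GPX4 was lost when any 1 library other than siEWSR1 replicate 1 was left out, and in 5 other settings.

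For each member, the genes with the closest pattern were taken as the 3 with the smallest root mean square distance between centred log2 profiles over the 6 libraries, among 8704 genes with a mean of at least 5 FPKM. Nearest to CTH were PCK2, a mitochondrial gluconeogenic enzyme, FLJ46906 and TRIB3, a stress-induced pseudokinase (distances 0.146 each, in log2 units). CBS was closest to LONP1, a mitochondrial protease (0.024), KNTC1, a kinetochore protein (0.025), and SPAG5, a spindle protein (0.029). GGCT was closest to HSPA9, a mitochondrial chaperone (0.016), EIF2A (0.025) and H2AFZ, a histone variant (0.025). GPX4 was closest to CNPY4, which overlaps TAF6 (0.038), AVPI1 (0.0465) and MOB3A (0.050). For the members that moved little, the nearest included GOLGA5 and NCBP2 for GCLC, YWHAZ and CCNG2 for GCLM, RPL3 and ACTR1B for GSS, and DNAJC9 and RABL6 for GSR, all at 0.028 or less. Nearest genes share the changes of their member by construction, so nothing is read from that likeness. Among the members themselves, GCLC with GCLM (0.047) and GSS with GSR (0.066) were the closest pairs, and CTH with CBS stood 1.06 apart.

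Beyond the members, 157 other genes of the surrounding pathways were listed, of which 130 reached the filter on low values. With siEWSR1, 33 were higher and 56 lower (25.4% and 43.1% of those tested, beside 33.2% and 31.0% of all genes), with a median log2 change of -0.13 against 0.01 over all tested genes. With siFLI1, 43 were higher and 53 lower (33.1% and 40.8%, beside 35.7% and 29.6% of all genes), with a median of -0.04 against 0.04. The median log2 change was lowest for cysteine supply and breakdown, among the 9 lists, in both comparisons. SUOX, GGT1, ANPEP, GPX3 and SLC40A1 averaged 0.228, 0.993, 0.984, 0.305 and 0.372 FPKM with siNeg, in that order. They were called higher with both siRNAs and could not have passed the filter without knockdown libraries, so the counts of higher genes include them partly through that filter. Where a mean of at least 5 FPKM was required, fewer genes were tested and fewer rose: 1 and 1 of the methionine cycle, 2 and 3 of cysteine supply, and 3 and 5 of the thioredoxin system, with siEWSR1 and siFLI1 in that order, and 3 of glutathione breakdown and transport with siEWSR1. Values of these genes are means ± SD of 2 libraries per group, and "rose" and "fell" are used of genes past an adjusted p of 0.05 by limma. The counts of each list below are to be set beside the shares of all genes given above. The lists were chosen with earlier results of these data known. Their counts, medians and adjusted p, here and below, are thus a description, and nothing is read from their distance to the shares of all genes.

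Of 8 tested methionine cycle genes, 2 rose and 4 fell with each siRNA. MAT2A, the catalytic subunit of methionine adenosyltransferase, which overlaps GGCX, rose to 111 ± 4.21 FPKM with siEWSR1 and 136 ± 1.20 with siFLI1, against 70.2 ± 2.41 with siNeg. Its regulatory partner MAT2B fell to 39.1 ± 2.62 and 43.5 ± 5.12 FPKM, against 64.6 ± 1.55. AHCYL1, a relative of the enzyme that makes homocysteine, fell to 38.9 ± 0.56 and 37.4 ± 0.56 FPKM, against 59.9 ± 1.39.

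Cysteine supply and breakdown had 17 tested genes, of which 5 rose and 10 fell with siEWSR1 and 7 rose (4 with quantile normalization) and 9 fell with siFLI1. Amino acid transporters were among those that fell. SLC7A11, the cystine importer, fell to 15.6 ± 2.53 FPKM with siEWSR1 and 15.8 ± 2.43 with siFLI1, against 33.7 ± 1.62 with siNeg, with an antisense gene of at most 1.76 FPKM in its locus. The neutral amino acid transporters SLC1A4 (13.4 ± 1.70 and 14.9 ± 0.57 FPKM, against 43.0 ± 3.16) and SLC1A5 (36.4 ± 0.66 and 40.3 ± 1.56, against 113 ± 4.4) fell as well. GOT1, an aspartate aminotransferase that also acts on a breakdown product of cysteine, fell to 17.2 ± 0.12 and 15.9 ± 0.52 FPKM, against 54.9 ± 6.34. Their log2 changes were -1.10 ± 0.14 (SLC7A11), -1.65 ± 0.10 (SLC1A4), -1.62 ± 0.06 (SLC1A5) and -1.64 ± 0.08 (GOT1) with siEWSR1 (SE).

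Glutathione breakdown and transport had 15 tested genes, of which 5 rose and 3 fell with siEWSR1 and 6 rose and 2 fell with siFLI1. CHAC1, which degrades glutathione in the cytosol, fell to 0.895 ± 0.161 and 1.30 ± 0.138 FPKM, against 39.2 ± 4.57 with siNeg. Its log2 change was -4.83 ± 0.12 (SE) with siEWSR1 and -4.46 ± 0.12 with siFLI1, below that of CTH. The knockdown means of CHAC1 were low beside the added 0.5, so the size of its change is less certain than the SE. Over 16 alternatives it ranged from -5.31 to -4.41 with siEWSR1 and from -4.81 to -4.13 with siFLI1. SLC25A40, a carrier related to the mitochondrial glutathione importer, which overlaps DBF4, fell to 4.79 ± 0.24 and 4.25 ± 0.31 FPKM, against 7.36 ± 0.30. DBF4 was lower too, at 4.39 and 3.98 FPKM with siEWSR1 and 3.81 and 3.86 with siFLI1, against 9.06 and 8.455 with siNeg. Reads from the stretch shared by SLC25A40 and DBF4 cannot be told apart here, and its extent was not examined. The exporter ABCC1 rose to 9.87 ± 0.41 and 14.4 ± 0.34 FPKM, against 7.55 ± 0.45. ABCC5 (17.6 ± 0.14 and 17.1 ± 0.31, against 10.2 ± 0.31) and GGT7, a relative of the gamma-glutamyltransferases (14.2 ± 0.16 and 14.2 ± 0.27, against 9.25 ± 0.47), rose too.

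Of 12 tested glutathione peroxidases, glutaredoxins and glyoxalases, 1 rose and 7 fell with siEWSR1, and 2 rose and 6 fell with siFLI1. GPX3, a secreted glutathione peroxidase, rose to 9.71 ± 1.34 FPKM with siEWSR1 and 19.8 ± 1.43 with siFLI1, against 0.305 ± 0.032 with siNeg, a log2 change of 3.66 ± 0.11 and 4.65 ± 0.11 (SE). With siNeg below 1 FPKM, GPX3 passed the filter through the knockdown libraries, and its change depended on the pseudocount, at 4.595 and 5.62 with 0.1 and 3.03 and 3.99 with 1. GPX8, a peroxidase of the endoplasmic reticulum, fell to 15.2 ± 0.26 and 16.6 ± 1.53 FPKM, against 23.8 ± 1.24. The mitochondrial glutaredoxin GLRX2 (14.9 ± 0.59 and 12.6 ± 0.54, against 22.9 ± 1.75) and the iron-sulfur cluster binding GLRX3 (27.9 ± 1.14 and 28.6 ± 1.80, against 36.2 ± 0.22) fell. HAGH, a glyoxalase, fell to 11.7 ± 0.96 and 12.95 ± 0.42 FPKM, against 16.0 ± 1.40, and its call with siFLI1 was lost without siNeg replicate 1, siFLI1 replicate 1 or siFLI1 replicate 2 (adjusted p = 0.129, 0.0591 and 0.107) and with no filter on low values (0.0957). The count of genes that rose with siFLI1 was 1 without siNeg replicate 2, without either siFLI1 library, with no filter and with no variance trend.

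Glutathione transferases, which attach glutathione to other molecules, had 15 tested genes. With siEWSR1, 5 rose and 7 fell (33.3% and 46.7%, beside 33.2% and 31.0% of all genes). With siFLI1, 6 rose and 6 fell (40.0% each, beside 35.7% and 29.6% of all genes). PTGES, a membrane-bound relative that makes prostaglandin, rose to 6.47 ± 0.07 and 11.4 ± 1.69 FPKM, against 2.29 ± 0.24 with siNeg. GSTK1 rose to 39.9 ± 1.63 and 45.4 ± 0.27 FPKM, against 26.3 ± 1.47. GSTM4 fell to 44.99 ± 4.36 and 45.4 ± 2.60 FPKM, against 80.3 ± 0.77, and GSTM5 to 3.52 ± 0.41 and 4.596 ± 0.03, against 7.62 ± 0.26. Other genes of this family went the other way: GSTM2 rose to means of 35.5 and 38.5 FPKM, against 23.1, and GSTM1 to 3.51 and 3.45, against 2.86. GSTM3 missed the threshold with both siRNAs. Reads of the near-identical GSTM genes may be divided among them. GSTCD fell to 2.75 ± 0.11 and 2.88 ± 0.11 FPKM, against 5.90 ± 0.23.

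**Figure D3:**
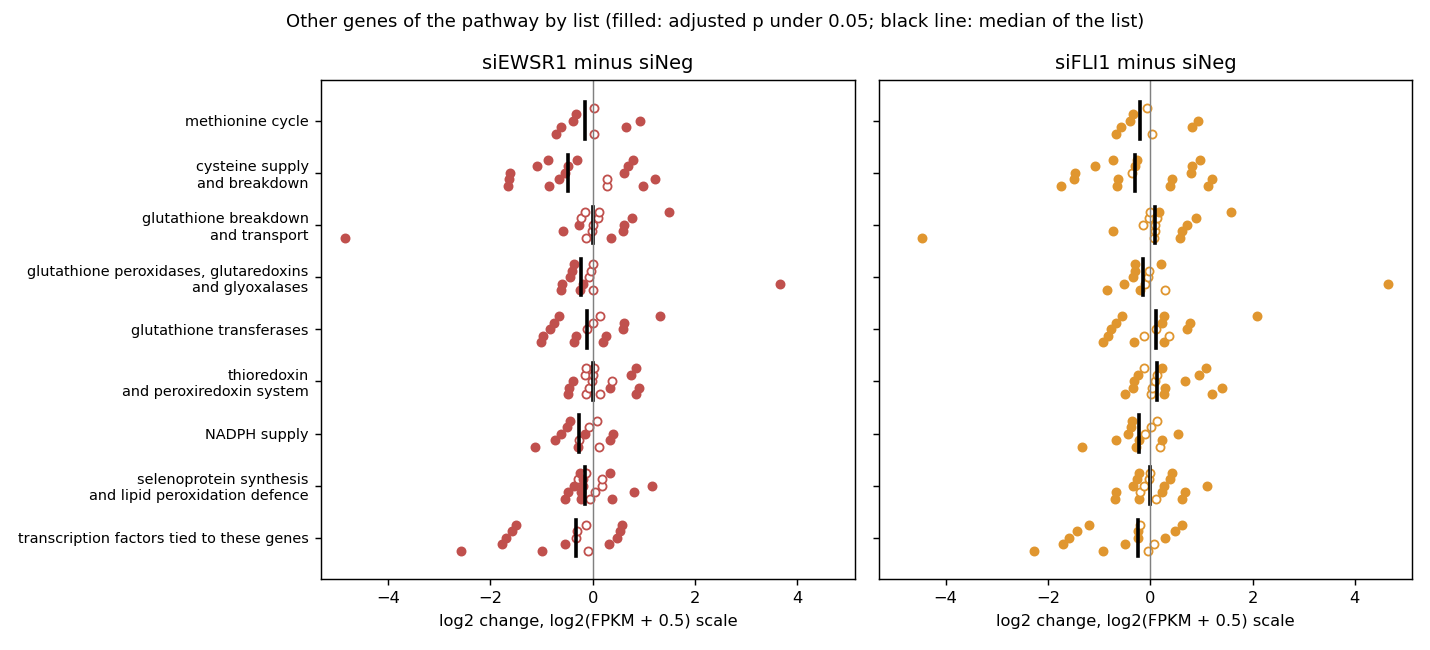
Log2 change of each tested gene of the 9 pathway lists (rows) with siEWSR1 (left) and siFLI1 (right) relative to siNeg; filled points passed an adjusted p of 0.05 by limma and black lines are list medians. CHAC1 is the far left point (-4.83 and -4.46) and GPX3 the far right one (3.66 and 4.65), while most genes lie between -2 and 2.

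The thioredoxin and peroxiredoxin system, the other main thiol defence, had 17 tested genes, of which 5 rose and 3 fell with siEWSR1 and 8 rose and 4 fell with siFLI1. The methionine sulfoxide reductases MSRB1 (12.4 ± 0.51 and 14.4 ± 0.30 FPKM, against 7.17 ± 0.01 with siNeg), MSRB2 (10.6 ± 0.28 and 15.1 ± 0.46, against 5.42 ± 0.45) and MSRB3 (4.33 ± 0.24 and 5.30 ± 0.53, against 2.20 ± 0.01) rose. TXNIP, an inhibitor of thioredoxin, rose to 180 ± 11.6 and 232 ± 7.09 FPKM, against 100.4 ± 0.87, in a locus that overlaps NBPF genes. Thioredoxin reductase TXNRD1, which overlaps EID3, fell to 37.9 ± 0.37 and 42.3 ± 2.80 FPKM, against 53.3 ± 1.39. The counts depended on single libraries: 5 fell without siEWSR1 replicate 1 in the first comparison, and in the second 5 rose without siNeg replicate 1 or siFLI1 replicate 2 and 2 fell without siFLI1 replicate 1.

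Of 13 tested genes of NADPH supply, 2 rose and 7 fell with each siRNA. ME1, a cytosolic malic enzyme, fell to 11.7 ± 0.18 FPKM with siEWSR1 and 10.0 ± 0.29 with siFLI1, against 25.9 ± 0.58 with siNeg. The isocitrate dehydrogenases IDH1 (29.9 ± 1.63 and 37.0 ± 2.13, against 50.05 ± 0.77) and IDH2 (52.7 ± 4.38 and 57.3 ± 2.12, against 74.5 ± 2.81) fell, as did RPIA of the pentose phosphate pathway (13.1 ± 0.97 and 12.6 ± 0.55, against 20.3 ± 0.19). PGLS, of the oxidative arm of that pathway, rose to 34.0 ± 2.00 and 39.5 ± 1.41 FPKM, against 26.9 ± 0.94. The count that rose with siEWSR1 was 1 without siNeg replicate 1, siNeg replicate 2 or siEWSR1 replicate 2, and the count that fell with siFLI1 was 4 without siFLI1 replicate 1.

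Genes of selenoprotein synthesis and lipid peroxidation defence, which bear on GPX4, had 18 tested members, of which 4 rose and 8 fell with siEWSR1 and 7 rose and 6 fell with siFLI1. SECISBP2, which binds the selenocysteine insertion element, fell to 14.7 ± 0.06 and 13.3 ± 0.26 FPKM, against 21.6 ± 1.35, and SEPSECS, which makes the selenocysteinyl transfer RNA, to 4.99 ± 0.02 and 4.28 ± 0.17, against 7.18 ± 0.00. The transferrin receptor TFRC rose to 24.3 ± 1.44 and 22.3 ± 0.53 FPKM, against 13.7 ± 0.02. NCOA4, a receptor for ferritin breakdown that overlaps TIMM23B, rose to 30.5 ± 1.81 and 30.6 ± 2.68 FPKM, against 23.2 ± 1.47, calls lost with no filter on low values (adjusted p = 0.0533 and 0.0519). Ferritin heavy chain FTH1, which overlaps BEST1, rose to 489 ± 13.5 FPKM with siFLI1, against 317 ± 5.84 with siNeg, and stood at 363 ± 69.4 with siEWSR1, where it missed the threshold (limma adjusted p = 0.222) but passed it without siEWSR1 replicate 2 (0.00288) and with quantile normalization (0.0129). With no filter its call with siFLI1 was lost (0.0524). The count that fell with siEWSR1 was 4 or 5 without either siNeg library or either siEWSR1 library 5 with no filter and 3 with equal FPKM sums, and with siFLI1 it was 3 without siNeg replicate 2. With no filter, 4 rose and 3 fell with siFLI1.

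The last list holds transcription factors tied to these genes: ATF4 and its partners and targets, which drive amino acid supply genes under stress, and NFE2L2 (NRF2) with its partners and inhibitors, which act on antioxidant response elements. Of 15, 4 rose and 7 fell with siEWSR1, and 3 rose and 9 fell with siFLI1. ATF4 fell to 138 ± 7.70 FPKM with siEWSR1 and 145 ± 1.09 with siFLI1, against 275 ± 18.3 with siNeg, a log2 change of -0.99 ± 0.07 and -0.91 ± 0.07 (SE). ATF5 (15.6 ± 0.80 and 19.3 ± 0.08, against 95.7 ± 13.3), which overlaps NUP62, DDIT3 (24.2 ± 1.15 and 27.5 ± 0.03, against 83.7 ± 5.61), which overlaps MARS, and ATF3 (2.87 ± 0.03 and 3.65 ± 0.27, against 9.02 ± 0.67) fell further on the log2 scale. MARS was lower too, at 34.3 and 33.4 FPKM with siEWSR1 and 34.4 and 33.35 with siFLI1, against 117.8 and 104.8 with siNeg. Reads from the stretch shared by DDIT3 and MARS cannot be told apart here, and its extent was not examined. The C/EBP factors CEBPB (11.7 ± 3.80 and 12.7 ± 1.60, against 34.8 ± 1.17) and CEBPG (9.79 ± 0.10 and 9.81 ± 0.01, against 33.1 ± 3.88) fell as well. These mRNA levels do not measure the proteins.

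NFE2L2 stood at 29.2 ± 0.34 FPKM with siEWSR1 and 31.6 ± 3.27 with siFLI1, against 36.7 ± 6.70 with siNeg, and missed the threshold in both comparisons (limma adjusted p = 0.0727 and 0.205). Without siNeg replicate 2 it passed as lower (adjusted p = 0.0123 and 0.0267), and with equal FPKM sums it passed with siEWSR1 (0.0431). KEAP1, which marks NFE2L2 for breakdown, rose to 24.4 ± 0.91 and 26.1 ± 1.27 FPKM, against 16.7 ± 0.58, and the related NFE2L1 rose to 69.9 ± 4.98 and 65.2 ± 2.08, against 46.7 ± 3.73. BACH1, a repressor at the same elements, rose to 6.73 ± 0.62 and 5.82 ± 0.29 FPKM, against 4.66 ± 0.14. Its call with siFLI1 was lost without siNeg replicate 1, siNeg replicate 2 or siFLI1 replicate 2 (adjusted p = 0.0587, 0.0951 and 0.105), with quantile normalization (0.126) and with no filter (0.0692).

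Of the small MAF partners, MAFK, which overlaps TMEM184A, fell to 3.22 ± 0.48 and 3.34 ± 0.24 FPKM, against 4.89 ± 0.19, with the call for siFLI1 lost with no filter (limma adjusted p = 0.0501). MAFG fell with siFLI1 to 8.50 ± 0.58 FPKM, against 10.1 ± 0.04 with siNeg, a call lost without siNeg replicate 1, siNeg replicate 2 or siFLI1 replicate 2 (adjusted p = 0.0869, 0.0769 and 0.108) and with equal FPKM sums (0.0676). It was 9.19 ± 0.15 FPKM with siEWSR1. MAFF stood at 1.51 ± 0.19 and 2.14 ± 0.15 FPKM, against 2.01 ± 0.29. It missed the threshold with siEWSR1 (adjusted p = 0.0532) but passed as lower without siNeg replicate 2 or siEWSR1 replicate 1 (0.0428 and 0.0414), and in 4 other settings (0.00628 to 0.0443). MTF1, a metal-responsive factor, rose with siEWSR1 to 3.67 ± 0.06 FPKM, against 2.83 ± 0.13, a call lost with quantile normalization (0.121) or without siNeg replicate 2 (0.0557), and stood at 2.71 ± 0.11 with siFLI1, where quantile normalization called it lower (0.0169). SP1 fell slightly with siFLI1 (19.9 ± 0.25 FPKM, against 23.4 ± 0.04) and stood at 21.9 ± 0.17 with siEWSR1, called lower there only with no filter (0.0167).

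**Figure D4:**
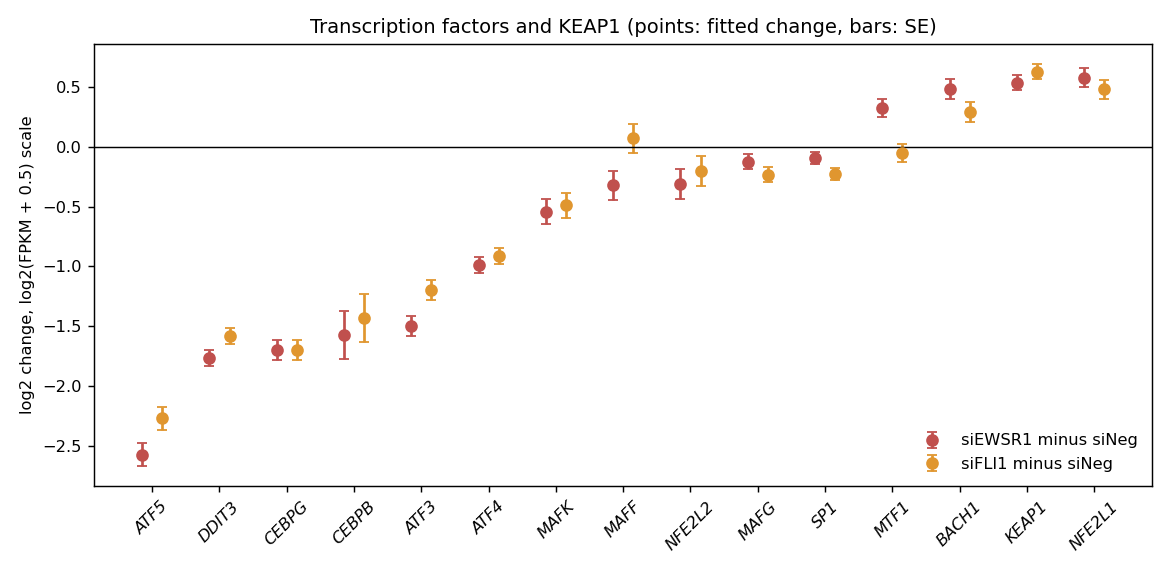
Log2 change of 14 transcription factors and KEAP1 with siEWSR1 (red) and siFLI1 (orange) relative to siNeg on the log2(FPKM + 0.5) scale, with SE as bars, ordered by the change with siEWSR1. ATF5, DDIT3, CEBPG, CEBPB, ATF3 and ATF4 lie between -2.57 and -0.91, whereas KEAP1 and NFE2L1 lie above 0.

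Set directly against each other, the siRNAs differed in few of these genes. Of the 130 tested genes of the lists, 8 were lower and 0 higher with siEWSR1 than with siFLI1 (limma adjusted p under 0.05). These are 6.15% and 0.00% of those tested, beside 3.07% and 0.790% of all tested genes. At an unadjusted p under 0.05, 5 were higher. The share of all genes at that threshold is not given, so nothing is read from the 5. The 8 were MAT2A, ETHE1, ABCC1, GPX3, PTGES, MSRB2, TXNIP and PRDX5, of which ETHE1 and PRDX5 were named after their values were seen. ETHE1, a mitochondrial sulfur dioxygenase, averaged 21.6 FPKM with siEWSR1 and 27.8 with siFLI1, against 13.9 with siNeg. PRDX5, a peroxiredoxin, averaged 138 FPKM with siEWSR1 and 176 with siFLI1, against 145 with siNeg. This count was 10 without siEWSR1 replicate 1, 1 without siNeg replicate 1, siNeg replicate 2 or siEWSR1 replicate 2, and 0 without either siFLI1 library.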

How the data were processed

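Gene-level FPKM values of 6 libraries, each with the bounds of a 95% interval, were deposited by the authors, 1 file per library. Per the submitters' processing notes, the tools were TopHat2 2.0.13, Cufflinks and Cuffdiff and the human build hg19. Annotation, strand setting, library kit and handling of multiply mapped reads: not given in the sources used here. Thus reads from stretches shared by overlapping genes, or from close copies, cannot be told apart. The files give no counts, so the depth per library is unknown, and the bounds are the authors' own.

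Rows (27442 per file) were joined by gene and position, FPKM of the 380 symbols on more than 1 row was summed, and starts were converted to count from 1. The 13043 genes that reached 1 FPKM in 2 or more of the 6 libraries were put on the log2(FPKM + 0.5) scale and fitted by limma 3.58.1 (R 4.3.3) using a variance trend and 1 fit over all libraries (3 residual and 3.39 prior degrees of freedom). P-values were adjusted by Benjamini-Hochberg over all tested genes, two-sided, with a threshold of 0.05. The fit was also run on simulated data. Far fewer genes were changed there than were called here against siNeg, so that run does not bear on the share called. Folds on this scale understate the change of low genes. Whether the 2 replicates of a group were separate cultures is not stated: the p-values then reflect the spread between these samples alone, which may be technical.

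The members and lists were chosen with earlier results of these data known. Named list genes are, per list and siRNA, up to 4 called genes of largest change with a mean of at least 5 FPKM in the higher group, all listed transcription factors, and the 3 nearest genes per member. Some further list genes were named after their values were seen. The result of 1 gene that this rule names is not reported here. Promoter windows are from RefSeq (GRCh38.p14), for 5 of 8 members. The alternatives tried were other pseudocounts, filters, scalings and variance models, a replicate block, fits of the compared groups alone, and each library left out.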

Additional observations from a re-analysis of the deposited data

Results flagged for a closer look

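These results were marked because the siRNAs differed when set directly against each other, as the log2 difference of siEWSR1 minus siFLI1 in the same limma fit (2 libraries per group). Among the enzymes, GPX4 differed by -0.40 ± 0.07 (SE), and both siEWSR1 libraries were below both siFLI1 libraries. It was chosen with these values known, so no p is given. Of the pathway genes, GPX3 differed by -0.99 (adjusted p = 0.0135), PTGES by -0.77 (0.0258), ABCC1 by -0.52 (0.0191) and MSRB2 by -0.50 (0.0258). ETHE1 differed by -0.36 (adjusted p = 0.0377), TXNIP by -0.36 (0.0353), PRDX5 by -0.35 (0.0321) and MAT2A by -0.28 (0.044). The genes nearest in pattern to GPX4 followed it by construction, MOB3A at -0.49 and CNPY4 at -0.41. The targeted gene EWSR1 differed by -0.59 (adjusted p = 0.00958). Of 16 alternatives, the difference no longer passed the threshold in 13 for MAT2A, 11 for ETHE1, 10 for GPX4 and TXNIP, 9 for CNPY4, 8 for MOB3A, MSRB2, PRDX5 and PTGES, 7 for ABCC1, 3 for GPX3 and 2 for EWSR1. For all 12 genes, these included each alternative that left out a siFLI1 library. No cause was tested.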

How the results depend on the processing

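Under 16 alternatives, CTH, CBS, GGCT and GSS kept their direction against siNeg with both siRNAs, GSR too, and GPX4 stayed higher. The log2 change of CTH ranged from -3.71 to -3.42 with siEWSR1 and from -3.73 to -3.43 with siFLI1, and that of GPX4 from 0.26 to 0.53 and from 0.72 to 0.85. GSR with siEWSR1 ranged from -0.32 to -0.13. With a mean of at least 5 FPKM (8745 genes tested), 2518 genes were higher and 3110 lower with siEWSR1 (28.8% and 35.6%, against 33.2% and 31.0%), and 2787 higher and 2910 lower with siFLI1 (31.9% and 33.3%, against 35.7% and 29.6%), so more were lower than higher. Quantile normalization turned the balance too, with 29.7% higher and 32.4% lower with siEWSR1 and 29.8% and 34.3% with siFLI1. Members lower with siFLI1 numbered 3 to 5 with single libraries left out. Genes higher and lower with siEWSR1 than with siFLI1, 103 and 401 as reported, were 66 and 136 with no filter, 42 and 155 with equal FPKM sums, 185 and 640 with a robust trend and 12 and 99 with only the 2 groups compared, and 209 were higher with quantile normalization (37.9% of calls, against 20.4%). Leaving out single libraries gave 3 to 85 higher and 2 to 508 lower. Of the members, 0 were lower with no filter, equal sums, no variance trend, the replicate block or only the 2 groups, and 0 to 1 with single libraries left out. Of the other pathway genes, 1 was higher with a pseudocount of 1, quantile normalization, no variance trend or a robust trend. Those lower numbered 2 with no filter, 1 with equal sums, 5 with no variance trend, 2 with only the 2 groups, and 0 to 10 with single libraries left out. PRDX5 with siEWSR1 against siNeg turned to 0.16 (adjusted p = 0.0262) with quantile normalization. The causes were not tested. Whether same-numbered libraries share more than a number is not stated. Their deviations correlated at -0.137, -0.053 and 0.069 across genes between groups, which cannot decide it. With the replicate block, 57 genes were higher and 262 lower with siEWSR1 than with siFLI1. No scaling moved the median of all genes by over 0.1 on the log2 scale. The depth is unknown, so what it limits cannot be given.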
